A study of Sus scrofa with 2 samples.

Results

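The proteasome subunit genes are the genes whose symbol in the deposited gene list begins with PSMA, PSMB, PSMC, PSMD, PSME, PSMF or PSMG followed by a digit. This rule found 44 of the 31908 genes listed, and it uses the symbol alone and no measured value. Of these 44 members, 41 had at least 200 unique molecular identifiers (UMIs, the counted transcript molecules) over both libraries together, which was the minimum for giving a ratio. The skin came from the back of male farm pigs, its cells were dissociated, dead cells were removed by sorting, and droplet-based single-cell RNA sequencing with 3′ counting was run on 1 fresh library (treatment labelled none) and on 1 cryopreserved library (labelled frozen), whose cells had been stored in 90% FBS with 10% DMSO and thawed. Nothing in the labels or methods says whether the libraries came from the same animal, and the protocol text attached to the fresh sample also describes freezing, so the libraries are named here by their titles. With 1 library per condition no difference could be tested against a spread between samples. Every interval given with a lower and an upper bound is a 95% interval for counting error only, and a difference describes this pair of libraries.

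The proteasome is the barrel-shaped protease that degrades ubiquitin-tagged proteins in the cytosol and nucleus of every cell. Its core particle is a stack of rings of alpha subunits (PSMA genes), which gate the entrance, and beta subunits (PSMB genes), some of which carry the catalytic sites. A regulatory particle made of ATPases (PSMC genes) and non-ATPase subunits (PSMD genes) recognises, unfolds and feeds in the substrate. Other activators (PSME genes) and an inhibitor (PSMF1) bind the same core, and dedicated chaperones build it. In immune cells, or after interferon, PSMB8, PSMB9 and PSMB10 replace the standard catalytic subunits PSMB5, PSMB6 and PSMB7, and the activator of PSME1 and PSME2 is made alongside. The resulting immunoproteasome is known for supplying peptides to MHC class I. In skin, keratinocytes, fibroblasts, vessel cells and resident leukocytes all need proteasomes.

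The 5 interferon-inducible members lie in few places of the pig genome (Sscrofa11.1, positions from the RefSeq annotation). PSMB8 (chr7:25058456-25061666, minus strand) and PSMB9 (chr7:25072133-25077508, plus strand) flank TAP1, the gene of a peptide transporter of the MHC class I pathway. PSME2 (chr7:75154570-75157871, plus strand) and PSME1 (chr7:75161830-75164531, minus strand) are separated by 3958 bases. PSMB10 (chr6:28544910-28547609, minus strand) lies apart from them. The window from 250 bases before the gene start to base 50 of the gene was searched on both strands for the core of the interferon-stimulated response element, taken as GAAA, any pair of bases and again GAAA. It was found in 4 of the 5 inducible members and in 1 of the 35 other proteasome genes searched (PSMC4, 2.86%). The 35 leave out PSMA8 and PSMB11, both under 200 UMIs. Of the 19559 windows of all genes 3.58% held it. The sequences below are the stretches that hold these matches, with the match in capitals, and for comparison the bases just before the start of PSMB8 and PSMB7, which hold none. All are RefSeq sequence of Sscrofa11.1, 5′ to 3′ on the strand of the gene.
PSMB9, chr7:25071963-25071992, bases -170 to -141 from the gene start: tttatggGAAAGGGAAAACGAAAgcggccg
PSME1, chr7:75164494-75164523, minus strand, bases 9 to 38: cgagcgctgcTTTCGCTTTCccttccctgt
PSME2, chr7:75154579-75154608, bases 10 to 39: cgtggggagtGAAAGCGAAAgcccaggctg
PSMB10, chr6:28547610-28547709, minus strand, bases -100 to -1: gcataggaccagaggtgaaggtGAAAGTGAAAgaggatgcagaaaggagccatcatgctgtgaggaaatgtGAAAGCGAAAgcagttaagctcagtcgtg
PSMB8, chr7:25061667-25061766, minus strand, bases -100 to -1: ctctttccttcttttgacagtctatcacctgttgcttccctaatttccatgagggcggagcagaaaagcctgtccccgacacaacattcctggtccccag
PSMB7, chr1:265235390-265235489, minus strand, bases -100 to -1: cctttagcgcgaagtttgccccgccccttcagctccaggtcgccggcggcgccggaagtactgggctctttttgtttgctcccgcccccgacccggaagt

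In PSMB9 a pair of matches overlaps, at bases -163 and -157, and both lie within the 5′ end of TAP1 as RefSeq annotates it. The 143 bases between the annotated ends of TAP1 and PSMB9 hold no match. In PSMB10 the matches start at bases -78 and -29, and in PSME1 and PSME2 they lie in the first bases of the gene, on the opposite strand in PSME1. A second core, TTCNNNGAA of the interferon-gamma activated site, was found in PSMB8 (at base 16), in 4 of the 35 other proteasome genes (11.4%) and in 7.12% of all windows. The core TGACNNNGC of the antioxidant response element, which NFE2L1 and NFE2L2 are known to bind, was found in 0 of the 5 inducible members, in 4 of the 35 others (PSMB7, PSMC5, PSMD14 and PSME4; 11.4%) and in 12.3% of all windows. A match is a description of letters and was not tested for binding.

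Not every symbol that fits the rule is a working subunit in these cells. PSMB11, the thymus-specific catalytic subunit, had 0 UMIs in both libraries, a count whose one-sided limit was set at 3 UMIs per library. PSMA8, the testis form of an alpha subunit, had 6 UMIs in each library. PSMC3IP, a meiotic recombination factor that shares only the start of its name, had 32 fresh and 45 cryopreserved UMIs. These are the 3 members under 200 UMIs. PSME3IP1 also matches by name only and encodes a protein that binds PSME3. It is counted among the 44 and the 41 members but, like PSMC3IP, not in the summed proteasome level, which therefore rests on 42 genes. PSMA1, PSMA2 and PSMD9 are listed without a symbol and were found by gene identifier, so they are no members and are given apart. PSMB5, PSMB6 and PSMG1 were not analysed here.

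The matrices hold 4379 fresh and 4860 cryopreserved barcodes, of which 2775 and 4223 lay within the maxima of 4500 genes, 30000 UMIs and 10% mitochondrial UMIs. These cells hold 32274985 and 36687009 UMIs, with a median of 11017 and 7945 per cell, and the libraries share 5 barcodes among them. Cells were clustered, and 22 of 24 clusters were named as 9 classes from marker genes, each with 3 to 11 markers of its class raised. Keratinocyte-like cells made up 19.1% of fresh and 25.1% of cryopreserved cells, and fibroblast-like cells 43.1% and 36.8%. The largest fibroblast-like cluster was cluster 1 in the fresh library (309 cells) and cluster 0 in the cryopreserved library (436 cells).

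The first comparison asks whether cells that were frozen and thawed carry the same level of proteasome transcripts as fresh cells. Most members were modestly higher in the cryopreserved library. Levels are given as CPM, the UMIs of a gene per 1e6 UMIs. For whole libraries the total was first adjusted by factors fitted between the libraries (TMM), and for a cell class it was the class total. The 42 proteasome genes together had 2058 CPM in the fresh library (2043 to 2074). In the cryopreserved library they had 2355 CPM (2339 to 2371), a ratio of 1.14 (1.13 to 1.16). Of the 41 members, 33 were higher after cryopreservation and 8 lower, while 53.5% of the 11692 genes with 200 UMIs were higher. Their median log2 ratio was 0.23, beside 0.03 over all these genes. The counting interval lay above 0 for 31 members (35.4% of all genes) and below 0 for 4 (29.8% of all genes). The genes of this background were not matched to the members in abundance, on which these shares and the next ones depend. A log2 ratio of at least 0.5 was reached by 4 members, close to the 8.29% of all genes that reached it, and none was that much lower (4.86% of all genes). The shift was thus broad and small, and the members stood apart from all genes in its direction more than in its size.

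**Figure D1:**
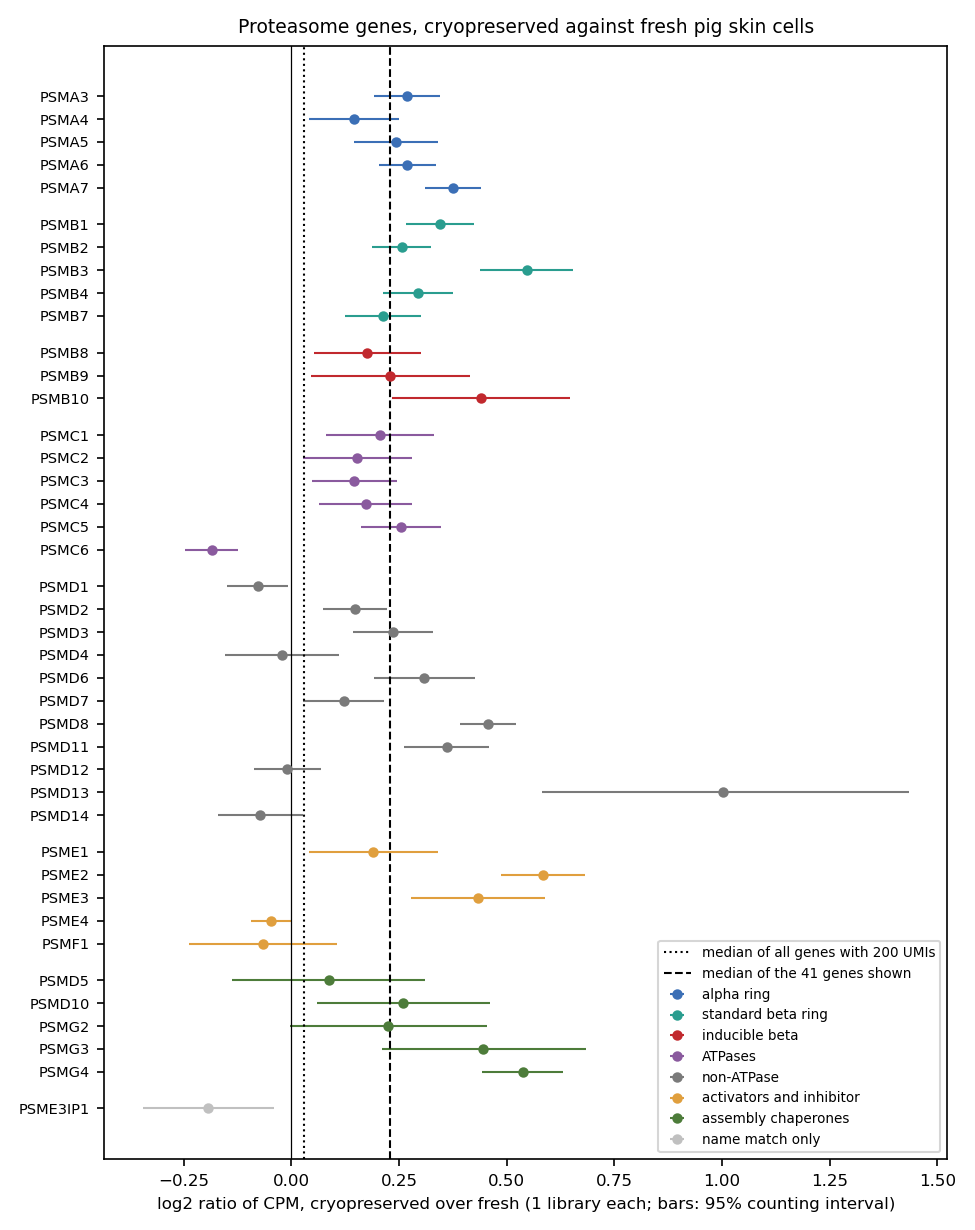
Log2 ratio of CPM, cryopreserved over fresh, on the horizontal axis for the 41 members with at least 200 UMIs, grouped and coloured by role. Points are the ratio of 1 library to 1 library and bars its 95% counting interval; the dotted line marks the median of all genes (0.03) and the dashed line the median of the members (0.23). The alpha and beta ring genes all lie to the right of 0, whereas members of the regulatory particle lie on both sides.

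The core particle gave the most even picture. All 5 alpha ring members with 200 UMIs were higher in the cryopreserved library, with log2 ratios from 0.15 to 0.37. PSMA7, the member of this ring with most UMIs, had 98.5 CPM in the fresh and 128 CPM in the cryopreserved library, a log2 ratio of 0.37 (0.31 to 0.44). PSMA3 had 72.4 and 87.3 CPM, with a log2 ratio of 0.27 (0.19 to 0.35). Both genes had the higher cryopreserved level in 9 of 9 cell classes. Summed, the alpha ring members, without PSMA1 and PSMA2, had 359 and 436 CPM, a ratio of 1.22 (1.19 to 1.25).

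The 5 standard beta ring members with 200 UMIs were likewise all higher. Summed, the members of this ring, without PSMB5 and PSMB6, had 319 CPM in the fresh and 396 CPM in the cryopreserved library. That is a ratio of 1.24 (1.21 to 1.27). PSMB3, a non-catalytic beta subunit, had 34.5 CPM in the fresh and 50.4 CPM in the cryopreserved library, and its log2 ratio of 0.55 (0.44 to 0.66) was the highest of this ring. PSMB2, another non-catalytic subunit and the one with most UMIs, had 93.3 and 111 CPM, a log2 ratio of 0.26 (0.19 to 0.32). PSMB7, the standard catalytic subunit with trypsin-like activity, had 56.7 and 65.7 CPM, a log2 ratio of 0.21 (0.13 to 0.30). PSMB3 was higher in 8 of 9 classes, and in macrophage-like cells it had 28.6 CPM in the fresh and 60.2 CPM in the cryopreserved library.

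The inducible catalytic subunits had log2 ratios from 0.18 to 0.44, beside 0.21 to 0.55 for the standard beta members. PSMB8, which replaces the chymotrypsin-like PSMB5, had 29.1 CPM in the fresh and 32.9 CPM in the cryopreserved library, a log2 ratio of 0.18 (0.05 to 0.30). PSMB9, which replaces PSMB6, had 13.02 and 15.3 CPM, a log2 ratio of 0.23 (0.05 to 0.42). PSMB10, which replaces PSMB7, had 9.88 and 13.4 CPM, a log2 ratio of 0.44 (0.23 to 0.65). All 3 were higher in the cryopreserved library, and the intervals of their ratios overlap.

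The regulatory particle was less even. Of the 6 ATPases, which unfold the substrate, 5 were higher in the cryopreserved library with log2 ratios from 0.15 to 0.25, and 1 was lower. That gene was PSMC6, with 129.7 CPM (126 to 134) in the fresh and 114 CPM (111 to 118) in the cryopreserved library, a log2 ratio of -0.19 (-0.25 to -0.12). PSMC6 was lower in 8 of 9 classes, all but macrophage-like cells, and the interval lay below 0 in 5 of them. PSMC1 had 28.4 and 32.8 CPM, a log2 ratio of 0.21 (0.08 to 0.33). PSMC2, the ATPase with fewest UMIs, had 28.3 and 31.5 CPM, a log2 ratio of 0.15 (0.03 to 0.28). The 6 ATPases summed to 322 and 334 CPM, a ratio of 1.04 (1.01 to 1.06). In this sum PSMC6, the ATPase with most UMIs, went against the other 5, which were all higher.

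Among the 11 non-ATPase members, 7 had the higher and 4 the lower level after cryopreservation. PSMD13, a scaffold subunit of the lid, had the largest log2 ratio of all members, 1.002 (0.58 to 1.43), but on few counts, 69 fresh and 153 cryopreserved UMIs (2.11 and 4.23 CPM). PSMD8, another lid subunit and the one with most UMIs, had 96.9 and 133 CPM, a log2 ratio of 0.46 (0.39 to 0.52), and was higher in 9 of 9 classes. PSMD2, a large base subunit that docks ubiquitin receptors, had 79.5 and 88.1 CPM, a log2 ratio of 0.15 (0.07 to 0.22). On the other side stood PSMD1, the second large base subunit, with 95.4 and 90.4 CPM and a log2 ratio of -0.08 (-0.15 to -0.01). PSMD4, a ubiquitin receptor, PSMD12, a lid subunit, and PSMD14, the enzyme that removes ubiquitin chains, had log2 ratios of -0.02, -0.01 and -0.07, with intervals that include 0. These last 3 were named after their values were seen. PSMD12 was lower in 8 of 9 classes, and PSMD1, PSMD4 and PSMD14 each in 7 of 9.

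The activators also differed among themselves. PSME2, a subunit of the interferon-inducible activator, had 41.9 CPM in the fresh and 62.8 CPM in the cryopreserved library, a log2 ratio of 0.58 (0.49 to 0.68). Its partner PSME1 had 20.1 and 22.9 CPM, a log2 ratio of 0.19 (0.04 to 0.34), and the intervals of the 2 ratios do not overlap. PSME2 was higher in 8 of 9 classes, whereas PSME1 was higher in 5 and lower in 4. PSME4, a nuclear activator and the member with most UMIs, had 221 and 213 CPM, a log2 ratio of -0.05 (-0.09 to -0.0016), and was lower in 7 of 9 classes. PSMF1, the inhibitor, had 16.5 and 15.7 CPM, a log2 ratio of -0.07 (-0.24 to 0.11).

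The assembly chaperones had the highest summed ratio of the roles, 1.33 (1.27 to 1.40), from 82.1 CPM in the fresh to 109.5 CPM in the cryopreserved library, and 5 of 5 members with 200 UMIs were higher. Most of it came from PSMG4, a chaperone of the alpha ring, with 45.4 and 65.9 CPM and a log2 ratio of 0.54 (0.44 to 0.63). PSMG4 was higher in 9 of 9 classes and its interval lay above 0 in 8 of them, more than for any other member. PSMG3, its partner in the same complex and the chaperone with fewest UMIs, had 7.58 and 10.3 CPM, a log2 ratio of 0.45 (0.21 to 0.68). PSME3IP1, the name match, had the lowest log2 ratio of all 41 members, -0.19 (-0.34 to -0.04), with 22.1 and 19.4 CPM, and a single cell held 6.53% of its UMIs.

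A similar split was seen within cell classes, where each class was scaled by its own total UMIs. The alpha ring, the standard beta ring and the chaperones each had the higher cryopreserved level in 9 of 9 classes, with the interval above 0 in 6, 4 and 6 of them. The ATPases and the non-ATPase subunits were each higher in 4 and lower in 5 classes. The ATPase sum includes the abundant PSMC6, which was lower in 8 of 9 classes. For the sum of all 42 genes the cryopreserved library was higher in 9 of 9 classes, and the interval lay above 0 in 5. In macrophage-like cells the sum had 2500.3 CPM in the fresh (2421 to 2582) and 2951 CPM in the cryopreserved library (2881 to 3023). That was the largest ratio of the 9, at 1.18 (1.13 to 1.23). The sum had 2480 and 2796 CPM in cluster 7 of this class, and 2678 and 3790 CPM in its cluster 20. Cluster 20 held 15 of the 154 fresh macrophage-like cells and 44 of the 276 cryopreserved ones. The part of this change in cluster shares in the ratio of 1.18 was not tested. In fibroblast-like cells the sum had 1633 and 1835 CPM, a ratio of 1.12 (1.10 to 1.14). All 6 fibroblast-like clusters were higher in the cryopreserved library. In clusters 1 (1341 and 1390 CPM) and 5 (1469 and 1518 CPM) the intervals of the libraries overlapped, and in the others they did not. Cluster 1 held 309 of 1197 fresh and 342 of 1555 cryopreserved cells of this class, and cluster 6 held 129 and 245. The part of these shares in the ratio was not tested either. In T or NK-like cells the sum had 2112 and 2371 CPM, also a ratio of 1.12 (1.06 to 1.19). That is a log2 ratio of 0.17. It was 0.06 with clusters 16 and 23 left out for their dividing-state markers, which leaves cluster 15 alone. Cluster 16 held 65 of the 145 cells of this class in the fresh library and 98 of 253 in the cryopreserved one. Its leading genes included GNLY, KLRK1 and GZMA, so more than dividing cells may have been removed. The part of dividing cells in the lower value was not tested. In keratinocyte-like cells it had 2849 and 2967 CPM, a ratio of 1.04 (1.02 to 1.06), and in lymphatic endothelial-like cells 1876 and 2037 CPM, a ratio of 1.09 (1.01 to 1.17). The ratios of mural-like, blood endothelial-like, dendritic-like and mast-like cells lay between 1.02 and 1.05, with intervals that include 1. When each cell counted equally, blood endothelial-like, dendritic-like and mast-like cells were lower in the cryopreserved library, with log2 ratios of -0.03, -0.03 and -0.11.

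Within the classes the background share of higher genes was lower than in the whole libraries, but it was taken differently. It covers genes with at least 200 UMIs in the class and is scaled by the class total, not by factors fitted between the libraries (TMM). With total UMIs in place of those factors, the median log2 ratio over all genes in the whole libraries was -0.009. Of the 39 members tested in fibroblast-like cells, 30 were higher in the cryopreserved library, beside 46.4% of all genes, and their median log2 ratio was 0.24 against -0.03 for all genes. Of 21 members tested in macrophage-like cells 19 were higher, beside 42.1% of all genes. Of 36 in keratinocyte-like cells 25 were higher, beside 52.5%, with a median of 0.07. In mural-like cells 6 of 12 were higher, beside 41.1%, and in blood endothelial-like cells 5 of 11, beside 39.4%. Of 16 members in dendritic-like cells 10 were higher, beside 42.0% of all genes, and of 9 in T or NK-like cells 6, beside 39.9%. In lymphatic endothelial-like cells only 2 members could be tested, and both were lower, where 36.8% of all genes were higher. In the cryopreserved blood endothelial-like cells the 12 fibroblast markers summed to 3376 CPM, against 342 CPM in the fresh ones. In macrophage-like cells, the class with the largest ratio, the 10 differentiated keratinocyte markers found in the files summed to 57.2 CPM in fresh and 305 CPM in cryopreserved cells, and the fibroblast markers to 622 and 986 CPM. In T or NK-like cells the 10 basal keratinocyte markers found had 112 and 249 CPM. The fibroblast markers went from 2211 to 868 CPM in dendritic-like cells and from 381 to 985 CPM in mast-like cells. The part of these markers in the values of their classes was not tested.

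Depth moved with the summed level. When the cells of each class and library were split at their median number of UMIs, the deeper cells had the higher summed CPM in 8 of 9 fresh and 9 of 9 cryopreserved classes, with ratios of deeper over shallower cells up to 1.47 for fresh and 1.45 for cryopreserved cells. The cryopreserved cells were the shallower ones. Among cells of 5000 to 15000 UMIs, a range chosen after the data were seen, the sum had 2016 CPM in the fresh and 2390 CPM in the cryopreserved library before scaling between libraries, a ratio of 1.185 (1.169 to 1.202), and 9 of 9 classes were higher with the interval above 1 in 7. With scaling factors refitted on those cells the ratio was 1.33, and the median log2 ratio of the members was 0.45, against 0.11 over all genes. A log2 ratio of 0.5 was reached by 17 of 40 members. The share of all genes that reached it in those cells is not given here, so this count has no background. Keratinocyte-like cells made up 16.1% of fresh and 31.4% of cryopreserved cells in that range. The part of depth in the difference between the libraries was not tested beyond these values.

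The second question is how the level of the proteasome varies among the cells of the skin. The summed level was lowest in fibroblast-like cells, with 1633 CPM in the fresh and 1835 CPM in the cryopreserved library, and highest in keratinocyte-like cells, with 2849 and 2967 CPM. The highest class was thus 1.74-fold above the lowest in the fresh and 1.62-fold in the cryopreserved library. The order of the 9 classes was nearly the same in both libraries (Spearman's rho 0.967 over 9 classes, which share their cluster definitions). It had little relation to the depth of the classes (rho 0.05 with the median UMIs per cell). Macrophage-like and mast-like cells came next, mast-like cells with 2561 (2369 to 2764) and 2685 CPM (2494 to 2887), and intervals of neighbouring classes in this order often overlapped.

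**Figure D2:**
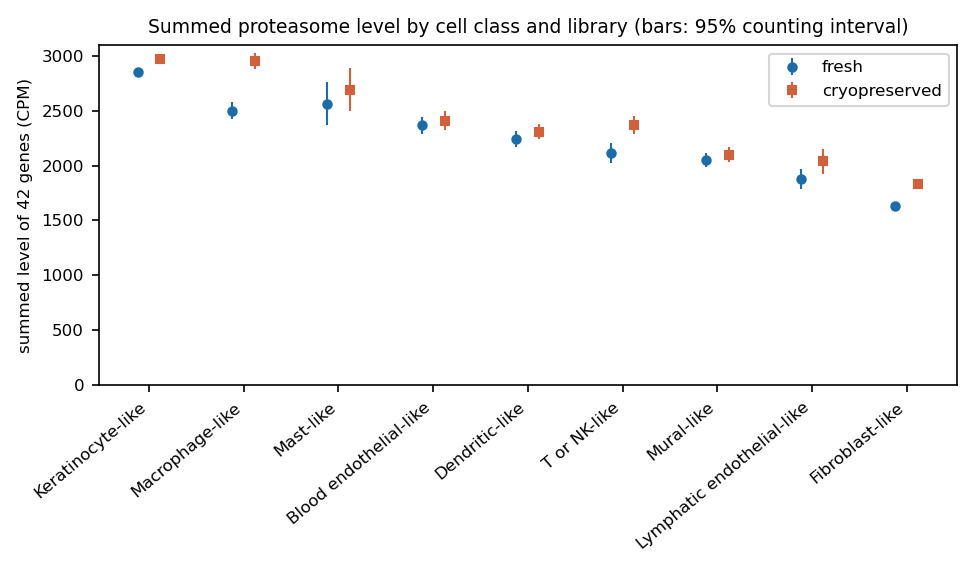
Summed CPM of 42 proteasome genes on the vertical axis, which starts at 0, for 9 cell classes in the fresh (circles) and cryopreserved (squares) library, 1 library each, with 95% counting intervals as bars. Levels run from 1633 CPM in fresh fibroblast-like cells to 2967 CPM in cryopreserved keratinocyte-like cells, and the cryopreserved point is the higher one in all 9 classes.

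Compared with all genes of at least 200 UMIs, which were not matched to the members in abundance, the members differed little among classes. The range of a member, its level in the highest class over that in the lowest, had a median of 2.97, against 7.04 over all genes with 200 UMIs. Each level was the mean of both libraries, with a floor of 3 UMIs per class over both libraries. At least 4-fold was reached by 10 of 41 members and by 69.8% of all genes, and at least 2-fold by 37 of 41 members and by 97.1% of all genes. The part of counting error in these ranges, which weighs more on genes with few UMIs, was not tested. The flattest members were PSMD2 with a range of 1.55, PSMC1 with 1.65 and PSMA3 with 1.86. PSMD2 lay between 65.6 CPM in blood endothelial-like and 120.5 CPM in mast-like cells of the fresh library, and between 65.1 CPM in lymphatic endothelial-like and 106 CPM in keratinocyte-like cells of the cryopreserved library. Keratinocyte-like cells were the highest class for 17 of 41 members, against 18.9% of all genes, and the lowest class for 0 of the 41, against 12.3% of all genes.

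PSMA6, an alpha ring subunit named after its values were seen, was an exception within the core. It had 230 CPM in the fresh and 332 CPM in the cryopreserved macrophage-like cells, 259 and 270 CPM in dendritic-like cells, and 218 and 210 CPM in mast-like cells. In fibroblast-like cells it had 54.9 and 64.9 CPM, a range of 4.69 over the classes. Blood endothelial-like cells had 170.2 and 204 CPM. The intervals of the 3 myeloid classes lay above those of fibroblast-like, keratinocyte-like, mural-like and lymphatic endothelial-like cells in both libraries.

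**Figure D3:**
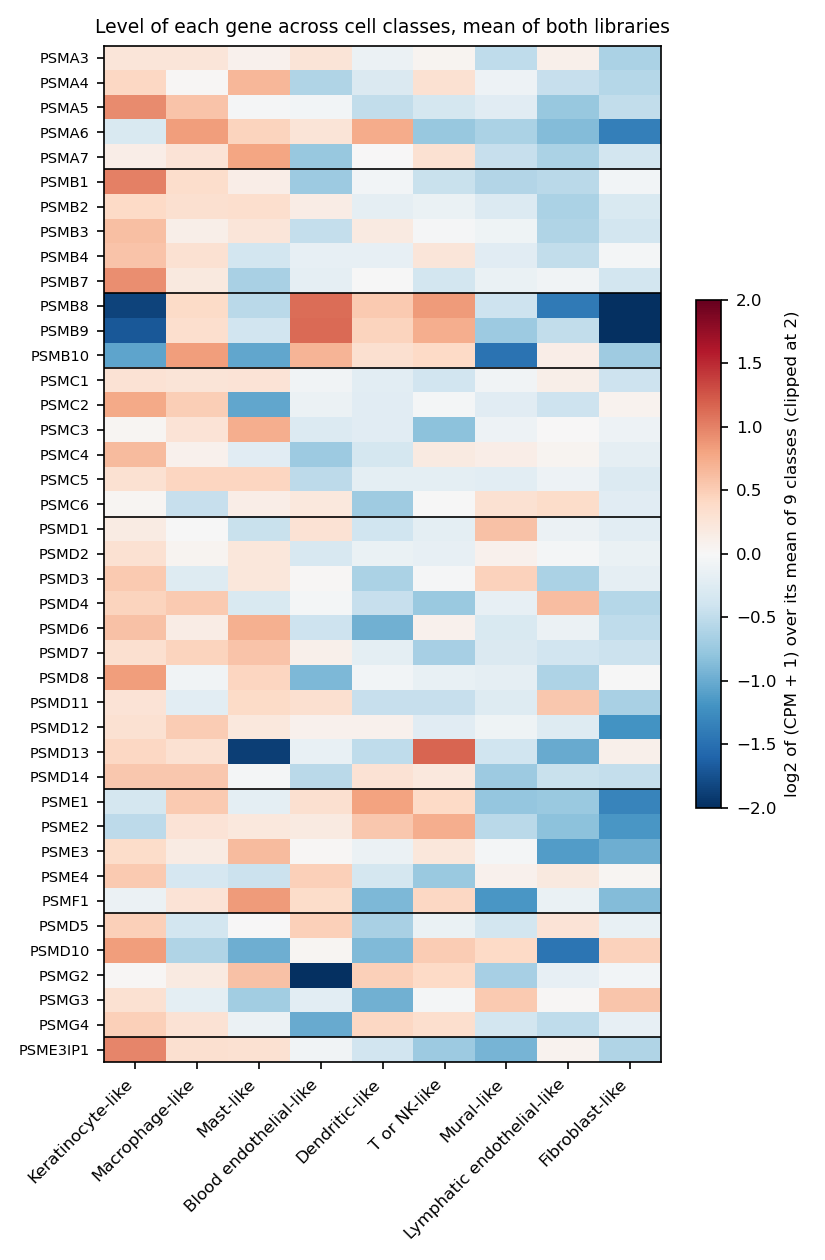
Level of 41 members (rows, grouped by role with lines between groups) in 9 cell classes (columns), as log2 of the mean CPM of both libraries plus 1, over its mean across the classes; colours run from blue (lower) to red (higher) and are clipped at 2. The inducible beta genes show the strongest contrasts, with blood endothelial-like cells highest and fibroblast-like cells lowest for PSMB8 and PSMB9 in this mean, while most other rows are pale.

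The widest ranges belonged to the inducible genes and to genes with few counts. PSMB9 had a range of 20.8 and PSMB8 of 11.8, both from fibroblast-like to blood endothelial-like cells. PSMG2, a chaperone of the alpha ring, had a range of 14.01, in which the lowest class stands at the floor of 3 UMIs. That class, blood endothelial-like cells, held 1 UMI in each library, and the highest, mast-like cells, 8 UMIs in all. PSMD10, a chaperone of the ATPases also known as gankyrin, had a range of 6.45, with 0 and 3 UMIs in lymphatic endothelial-like cells against 123 and 175 UMIs (15.9 and 16.4 CPM) in keratinocyte-like cells. For the last 2 genes the low end rests on single counts.

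PSMB8 had 143 CPM (125 to 163) in blood endothelial-like cells of the fresh library, the highest class there, and 122 CPM (104 to 143) in the cryopreserved library. T or NK-like cells had 92.2 CPM (74.8 to 112) in the fresh and 128 CPM (110.1 to 149) in the cryopreserved library, where their interval overlapped that of blood endothelial-like cells. Leukocytes came next, dendritic-like cells with 81.6 and 92.8 CPM, and macrophage-like cells with 72.6 and 85.2 CPM. Mural-like cells had 41.6 and 48.7 CPM and mast-like cells 38.9 and 44.3 CPM, the latter on 10 and 12 UMIs. At the lower end stood keratinocyte-like cells with 16.3 and 15.7 CPM, and fibroblast-like cells with 10.3 and 12.1 CPM. Lymphatic endothelial-like cells had 12.4 CPM (5.93 to 22.7) in the fresh and 31.7 CPM (19.1 to 49.5) in the cryopreserved library, so the vessel linings of blood and lymph did not overlap in either library.

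PSMB9 was highest in blood endothelial-like and lowest in fibroblast-like cells in both libraries. It had 64.4 CPM (52.4 to 78.2) and 68.4 CPM (54.6 to 84.6) in blood endothelial-like cells of the fresh and cryopreserved library. T or NK-like cells had 41.4 and 58.3 CPM, macrophage-like cells 41.3 and 34.8 CPM, and dendritic-like cells 34.6 and 46.9 CPM. Fibroblast-like cells had 2.89 CPM (2.11 to 3.87) and 3.502 CPM (2.65 to 4.54), and keratinocyte-like cells 9.05 and 7.98 CPM.

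PSMB10 was less concentrated. It was highest in macrophage-like cells, with 28.0 CPM (20.2 to 37.8) in the fresh and 31.7 CPM (24.7 to 39.9) in the cryopreserved library, and blood endothelial-like cells had 22.9 and 30.6 CPM, within the same intervals. Fibroblast-like cells had 8.61 and 10.5 CPM and keratinocyte-like cells 6.08 and 8.55 CPM. Mural-like cells had 1.56 CPM on 3 UMIs in the fresh library and 8.81 CPM on 17 UMIs in the cryopreserved library. The fresh mast-like cells had 0 UMIs of PSMB10, and the cryopreserved ones 4.

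PSME1 was highest in dendritic-like cells, with 52.0 and 57.4 CPM, and lowest in fibroblast-like cells, with 9.51 and 13.9 CPM. PSME2 was highest in T or NK-like cells, with 107 CPM (88.4 to 129) in the fresh and 140.2 CPM (121 to 162) in the cryopreserved library, and lowest in fibroblast-like cells, with 25.8 and 39.4 CPM. Dendritic-like cells had 98.3 and 119 CPM of PSME2, blood endothelial-like cells 77.7 and 91.8 CPM, and keratinocyte-like cells 42.3 and 61.3 CPM. The highest class of the activator genes was thus a leukocyte class in both libraries. PSME2 was higher in the cryopreserved library with the interval above 0 in 6 classes, among them fibroblast-like, keratinocyte-like and mural-like cells, and lymphatic endothelial-like cells had 42.02 and 41.7 CPM.

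**Figure D4:**
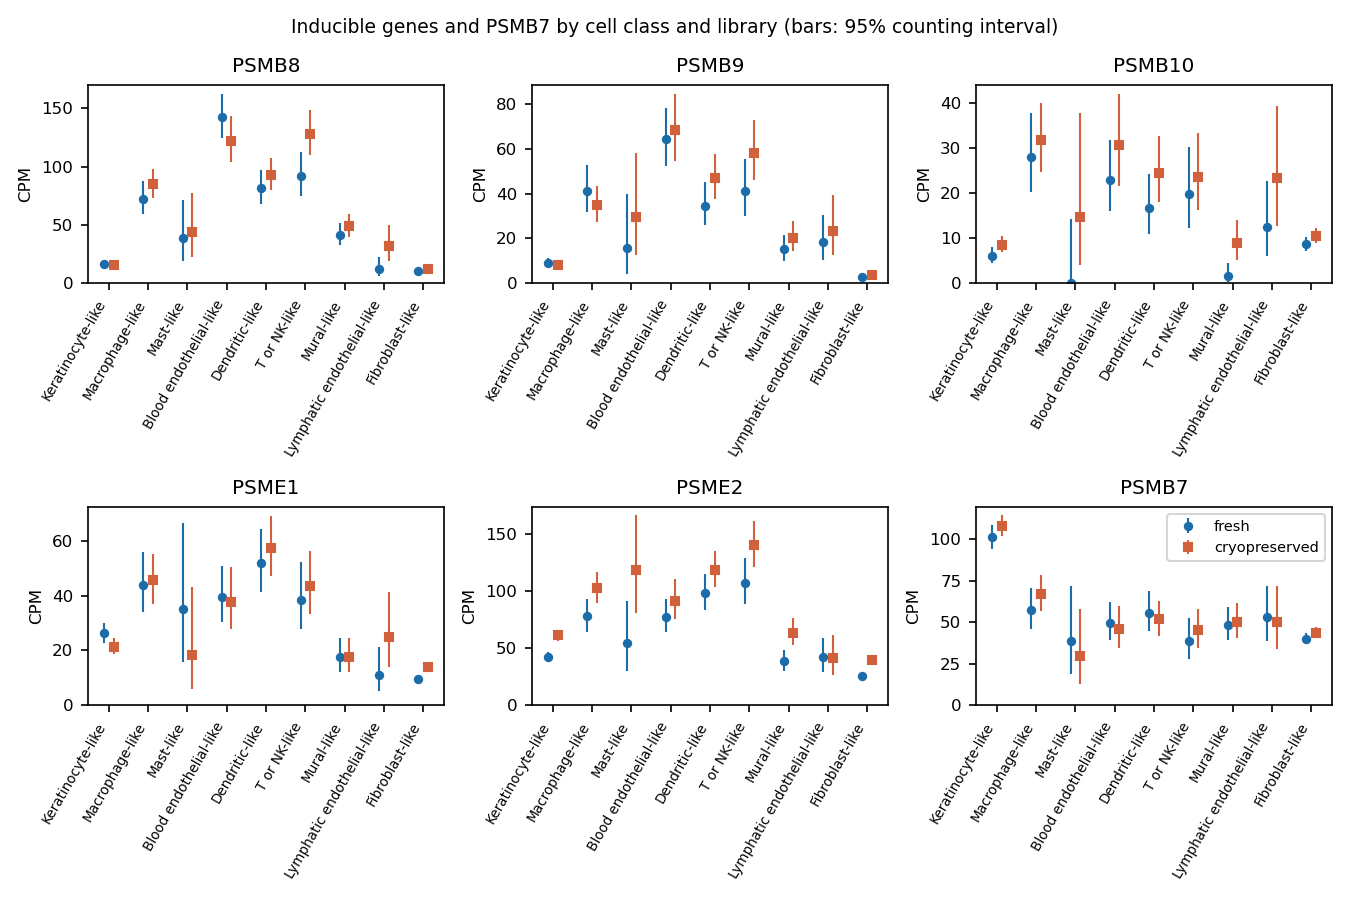
CPM of PSMB8, PSMB9, PSMB10, PSME1, PSME2 and PSMB7 (panels, vertical axes from 0) in 9 cell classes of the fresh (circles) and cryopreserved (squares) library, 1 library each, with 95% counting intervals as bars. PSMB9 peaks in blood endothelial-like cells in both libraries and PSMB8 in the fresh one (143 CPM), both are low in keratinocyte-like and fibroblast-like cells, and PSMB7 is highest in keratinocyte-like cells (101 and 108 CPM).

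Dividing the summed UMIs of PSMB8, PSMB9 and PSMB10 by those of PSMB7 in the same cells sets the inducible against the standard form. PSMB7 is the only standard catalytic gene of the analysis, and it had a range of 3.05 over the classes itself. The ratio thus orders the classes by inducible UMIs relative to PSMB7 and is no share of immunoproteasome. It was 4.63 (3.61 to 5.99) in fresh and 4.82 (3.62 to 6.54) in cryopreserved blood endothelial-like cells, and 3.98 (2.81 to 5.75) and 4.67 (3.53 to 6.27) in T or NK-like cells. Dendritic-like cells had 2.39 and 3.18, and macrophage-like cells 2.48 and 2.27. Fibroblast-like cells had 0.544 (0.475 to 0.622) and 0.600 (0.531 to 0.678), and keratinocyte-like cells 0.311 (0.268 to 0.360) and 0.299 (0.264 to 0.337). In these last 2 classes the inducible genes had fewer UMIs together than PSMB7 alone. With the ratios of both libraries averaged, the highest class was 15.5-fold above the lowest. It was 13.1-fold above with all 5 standard beta members that had 200 UMIs as the denominator. For the summed CPM of the 3 inducible genes, with no denominator, the span was 10.6-fold among fresh and 8.48-fold among cryopreserved classes. Over all cells the ratio was 0.917 (0.858 to 0.980) in the fresh and 0.936 (0.883 to 0.992) in the cryopreserved library, intervals that overlap widely.

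The inducible genes varied among clusters of 1 class as well. Clusters were formed from these same cells, on 2000 features, so the values are a description. In the fresh library keratinocyte-like cluster 9, which KRT15 marks together with ASCL2 and CXCL14, had 72.0 CPM (60.1 to 85.6) of PSMB8, PSMB9 and PSMB10 together, and in the cryopreserved library it had 57.6 CPM (47.8 to 68.9). The cluster of KRT1 and KRT10, cluster 13, had 19.2 and 27.9 CPM, cluster 2 had 19.2 and 27.0 CPM, and cluster 10 had 21.2 and 17.8 CPM. The KRT15 cluster lay above each of these 3 in both libraries with no overlap of intervals. Cluster 19, of dividing-state markers, had 12.9 CPM on 4 UMIs and 37.1 CPM (25.7 to 51.9), which overlaps the KRT15 cluster in the cryopreserved library.

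Fibroblast-like clusters differed as well. Cluster 0 (MYOC, FGF10) had 30.1 and 38.8 CPM, cluster 5 (CCL19, LEPR) 37.1 and 47.6 CPM, and cluster 6 (SHISA3, PTX3) 34.4 and 31.9 CPM of the 3 inducible genes. Cluster 1 (WIF1, NT5E) had 11.09 and 10.7 CPM and cluster 4 (CTHRC1, SFRP2) 10.5 and 16.8 CPM, below these 3 in both libraries with intervals that do not overlap. Cluster 18 (COCH, TNN) had 21.6 CPM on 12 UMIs and 12.7 CPM on 8 UMIs. Mural-like cluster 8, with the pericyte genes HIGD1B and KCNJ8, had 89.1 and 105 CPM, while mural-like cluster 12, with the smooth muscle genes CNN1 and MYH11, had 19.8 and 33.0 CPM. The small macrophage-like cluster 20, with ARG1 and MARCO, had 247 CPM (175 to 339) on 15 cells and 350.2 CPM (291 to 418) on 44 cells, against 129.8 and 115 CPM in cluster 7 (CD209, C1QA). Cluster 20 also had the highest summed level of the named clusters in the cryopreserved library, 3790 CPM (3589 to 3999), against 2678 CPM (2426 to 2950) in the fresh.

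**Figure D5:**
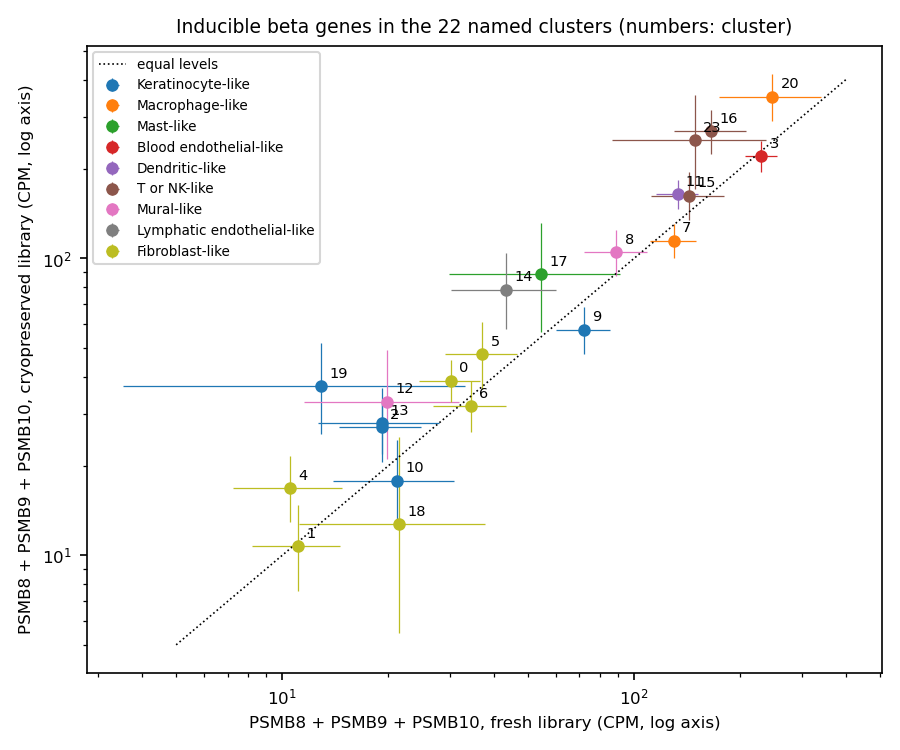
Summed CPM of PSMB8, PSMB9 and PSMB10 in each of 22 named clusters, fresh library on the horizontal and cryopreserved library on the vertical axis, both log axes, with 95% counting intervals as bars, colours for classes, cluster numbers beside the points and a dotted line of equal levels. Keratinocyte-like cluster 9 (72.0 and 57.6 CPM) lies above the other keratinocyte-like clusters, with an interval that overlaps that of cluster 19 in the cryopreserved library, and mural-like cluster 8 (89.1 and 105 CPM) from cluster 12.

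For the whole set of members the keratinocyte-like clusters differed less. The sum of the 42 genes ran from 2725 to 2920 CPM over the 5 clusters in the fresh and from 2824 to 3261 CPM in the cryopreserved library. In cluster 13 (KRT1, KRT10), 22 of 35 members tested were higher than in cluster 9 (KRT15) in both libraries, against 26.5% of all genes, and 6 were lower in both, against 50.3% of all genes. The other clusters were closer to cluster 9. In cluster 2, 16 of the 35 were higher (34.4% of all genes) and 12 lower (50%), and in cluster 10, 14 were higher (37.5%) and 15 lower (40.4%). In cluster 19, 12 were higher (32.7%) and 4 lower (33.9%). Of the 22 named clusters 21 had the higher summed level in the cryopreserved library, and the exception was mural-like cluster 8 with 2138 and 2085 CPM. For the inducible genes 15 of the 22 were higher and 7 lower.

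Genes that work with the proteasome were taken from 5 fixed lists. Of 11 tested proteasome-associated genes 7 had the higher and 4 the lower cryopreserved level, with a median log2 ratio of 0.09. POMP, the maturation factor that completes the core particle, had 71.5 CPM in the fresh and 113 CPM in the cryopreserved library, a log2 ratio of 0.65 (0.58 to 0.73), and was higher in 9 of 9 classes. ADRM1, a ubiquitin receptor of the regulatory particle, had a log2 ratio of 0.53 and was likewise higher in 9 of 9 classes. Both are named for being the 2 past 0.5. ZFAND5, an activator of the proteasome and the most abundant of this list, had 324 and 353 CPM, ECPAS, an adaptor, 129 and 116 CPM, AKIRIN2, a nuclear import factor of the proteasome, 126 and 145 CPM, and TXNL1, a bound thioredoxin, 109 and 116 CPM. The subunits found by identifier had log2 ratios of 0.30 (PSMA1), 0.24 (PSMA2) and 0.22 (PSMD9), within the range of the members.

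Of the 3 tested regulators 1 was higher and 2 lower. NFE2L1, the transcription factor known to restore proteasome genes after inhibition, had 70.2 and 77.6 CPM, and NFE2L2, its relative of the oxidative stress response, had 139.5 and 136 CPM. NGLY1, the glycanase that activates NFE2L1, had 69.4 and 56.6 CPM, a log2 ratio of -0.29. Of 10 genes of ubiquitin and its shuttles 8 were higher and 2 lower, with a median log2 ratio of 0.19. UBB, a polyubiquitin gene, had 3208 and 4006 CPM and was higher in 8 of 9 classes. RPS27A, a ubiquitin fused to a ribosomal protein, had 1756 and 1841 CPM, and VCP, the segregase that extracts substrates, 107 and 123 CPM.

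Of 8 tested genes of MHC class I presentation 5 were higher and 3 lower, with a median log2 ratio of 0.16. B2M, the light chain of MHC class I, had 1415 and 998 CPM, a log2 ratio of -0.50, and was lower in 9 of 9 classes. CALR, a chaperone of peptide loading, had 223 and 414 CPM, a log2 ratio of 0.89, and was higher in 9 of 9. IRF1, a transcription factor of the interferon response, had 199.7 and 265 CPM. TAP1, which lies between PSMB8 and PSMB9, had only 11 and 13 UMIs and is named for its position. Of 7 tested interferon-stimulated genes 3 were higher and 4 lower, with a median of -0.18. IFI6 had 655 and 786 CPM, ISG15 187 and 216 CPM, MX1 60.4 and 63.4 CPM, and MX2 52.9 and 40.4 CPM. ISG15 was highest in blood endothelial-like cells, with 1756 and 2260.2 CPM, and so was IFI6, with 1922 and 2795 CPM. PSMB9 was highest in that class in both libraries too. Elsewhere the orders differed. Fibroblast-like cells, lowest for PSMB9, had 885 and 1033 CPM of IFI6, against 156 and 158 CPM in T or NK-like cells. IRF1 had 283 and 395 CPM against 75.2 and 94.5 CPM in the same classes. For ISG15 the order was that of PSMB9, with 98.5 and 139 CPM against 204 and 251 CPM. A link between these genes and the inducible members was not tested.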

How the data were processed

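Single-cell RNA was counted in 1 fresh and 1 cryopreserved library. The authors made the deposited matrices with Cell Ranger 4.0.0 and STAR 2.5.1b against Sscrofa11.1 with its Ensembl annotation, and they hold raw UMI counts per gene and barcode with no normalization. Here, barcodes within 4500 genes, 30000 UMIs and 10% UMIs of 13 mitochondrial genes were kept, as in the study. The study describes gating out cell doublets by scatter when sorting, and it set its gene and UMI maxima with doublets and multiplets in mind. Leaving out the 6% of cells with the highest simulated-doublet score (scikit-learn 1.9.0) was an alternative. Cells were integrated and clustered with Seurat 5.3.0 in R 4.3.3 (2000 features, 30 dimensions, resolution 0.8). A cluster was named where at least 3 markers of a class were raised 2-fold and found in 10% of its cells, and 2 clusters (60 cells) stayed unnamed. Counts were summed over cells and scaled to CPM with TMM factors of edgeR 4.0.16, and within classes by the class total. The 95% intervals are exact Poisson for a level and exact conditional binomial for a ratio (SciPy 1.17.1, Python 3.11.15). Droplet UMIs are molecules, but the intervals cover counting error only. With 1 library per condition no test was run, and no value separates condition from library or animal. The interval script was tested on simulated data.

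The members and lists were chosen with earlier results of these data known. Genes were named by a fixed rule: members under 200 UMIs, the 5 inducible genes and PSMB7, the 3 highest and 3 lowest log2 ratios, the 4 widest and 3 narrowest class ranges, the most and least abundant of each role, and up to 4 abundant genes of each list; exceptions are stated, and some genes the rule names are not reported here. The planned denominator of the inducible ratio also held PSMB5 and PSMB6, which were not analysed here, so PSMB7 alone was used. Alternatives were other scalings (total UMIs, DESeq2 1.42.0 size factors, totals without mitochondrial genes), cell limits, class shares, cell weights, gene minimums and cluster settings. Sequences and positions came from RefSeq, in which 43 members had a gene of the same symbol.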

Additional observations from a re-analysis of the deposited data

Results flagged for a closer look

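The ATPases differed in direction between classes, with a log2 ratio, cryopreserved over fresh, of 0.24 in macrophage-like and -0.23 in T or NK-like cells; this difference between classes was not tested. The non-ATPase subunits had log2 ratios of 0.19 in fibroblast-like and -0.12 in mural-like cells, a difference that was not tested either. Barcodes left out for exceeding the gene or UMI maximum carried a proteasome signal as well, with a summed level of 2438 CPM in 600 fresh and 2920.02 CPM in 191 cryopreserved barcodes, against 2086 and 2324 CPM, on the same scale of total UMIs, in the cells kept.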

How the results depend on the processing

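The summed ratio of 1.14 was 1.11 with total UMIs in place of TMM (1.114) and with mitochondrial genes left out of the totals (1.112), 1.097 with all deposited barcodes, 1.167 without the mitochondrial limit, 1.131 with the fresh class shares in both libraries and 1.126 with each cell counted equally. In cells of 5000 to 15000 UMIs, chosen after seeing the data, it was 1.332, the median log2 ratio was 0.45 and 17 members passed 0.5. With all deposited barcodes 2 members passed 0.5. For neither of these counts past 0.5 is a share of all genes given. With each cell counted equally 3 of 9 classes were lower in the cryopreserved library, against 0. No alternative reversed a summary over all cells. Of the summary values across alternatives, 46 moved by less than their limit and 11 moved by more. Among these 11 was the summed ratio in each of the settings given above for it. Of the values of single classes 150 moved by less than their limit and 12 by more. No paired analysis was possible because there was 1 library per condition. Depth limits members with few UMIs in small classes, above all mast-like cells.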
